A study of Mus musculus with 12 samples.

Results

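The genes for cholesterol synthesis were followed through lens RNA of *Trpm3* mouse mutants. The 7 genes *Hmgcs1*, *Idi1*, *Fdft1*, *Sqle*, *Lss*, *Dhcr7* and *Srebf2* were taken by name from the table of 55487 genes, and all 7 passed the filter on low counts that 8984 genes passed. Of the 7 genes, 6 encode enzymes and *Srebf2* encodes their transcriptional regulator. None of the 7 is a cholesterol uptake gene, so uptake was described from a list of its own. Whole lenses were taken at P7 (7 days of age), with 3 libraries per genotype and 12 in all. TRPM3 is a cation channel of the plasma membrane, and the study asked how a mutation of the channel and its loss differ in their effect on the lens. *Trpm3*-I/M mice (I/M in what follows) were heterozygous and *Trpm3*-M/M mice (M/M) homozygous for the I65M substitution, made by gene editing. *Trpm3*-KO mice (KO) carried an allele made by homologous recombination and were re-derived from frozen embryos, and wild-type mice were the controls. All lines were kept on the B6J background, lenses of 4 males and 4 females were described as pooled in a library, and the alleles were not restricted to the lens.

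Cholesterol is built from acetyl-CoA through HMG-CoA, mevalonate, isoprenoid diphosphates, squalene and lanosterol. When sterols are low, the transcription factor SREBP-2, the product of *Srebf2*, is escorted from the endoplasmic reticulum to the Golgi, cleaved there and released to the nucleus, where it raises transcription of the synthesis enzymes. Fiber cell membranes of the lens are among the most cholesterol-rich membranes known, and the avascular lens makes much of this cholesterol itself. Inherited defects of *LSS* and of *DHCR7* have been linked to cataract in people.

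The libraries held 56162169 to 82090198 counts on genes. *Trpm3* itself, on chromosome 19, stood at 269 ± 17.3 CPM (read counts relative to library size after TMM scaling, mean ± SD, n = 3) in wild-type, 95.3 ± 5.02 in KO, 387 ± 23.4 in I/M and 475 ± 8.02 in M/M lenses. The 16 crystallin genes took 61.04 to 63.92% of counts in wild-type libraries and 49.38 to 51.27% in M/M libraries, and scaling by library size alone moved the middle log2 fold change over the tested genes to 0.50 in M/M and 0.20 in I/M lenses. Fold changes are therefore given relative to the bulk of genes, with TMM factors. Summed markers of lens fibers ran from 44653 to 50234 CPM in wild-type and 24271 to 27287 in M/M, those of lens epithelium from 411 to 447 and from 284 to 306, and those of vascular endothelium from 5.86 to 8.27 and from 55.7 to 66.2. Summed macrophage markers ran from 0.436 to 0.708 CPM in wild-type and from 10.1 to 19.1 in M/M libraries. I/M replicate 3 held 5 counts of *Xist*, against 2182 to 16856 in the other libraries, so its sex composition did not match the description. In bulk lens RNA, fewer cells of a type and less RNA per cell cannot be told apart, and the p-values measure the spread between these libraries only.

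The 7 genes lie on 5 chromosomes of GRCm38, and the start sites of those that the results turn on are shown next. Upstream sequence from RefSeq (GRCm38.p6, 250 bases before to 50 bases after an annotated start) was at hand for 5 of the 7 genes in 7 windows, 3 of them for *Dhcr7*. The windows were searched on both strands for TCACNCCAC, a form of the sterol regulatory element bound by SREBP, for CCAAT, bound by NF-Y, and for GGGCGG, bound by Sp1. *Hmgcs1* is shown because its window was the only one of the 7 with TCACNCCAC, and *Dhcr7* because its RNA changed most. Capitals mark matches of the 3 motifs, in either orientation.
Hmgcs1, chr13:119690101-119690400, plus strand: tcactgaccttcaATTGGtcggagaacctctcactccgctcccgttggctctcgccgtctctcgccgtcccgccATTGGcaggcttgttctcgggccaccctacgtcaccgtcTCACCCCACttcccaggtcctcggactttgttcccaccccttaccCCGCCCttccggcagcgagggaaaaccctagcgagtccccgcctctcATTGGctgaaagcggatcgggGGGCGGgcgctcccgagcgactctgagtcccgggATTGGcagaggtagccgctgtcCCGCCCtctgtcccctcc
Dhcr7, first start, chr7:143822917-143823216, plus strand: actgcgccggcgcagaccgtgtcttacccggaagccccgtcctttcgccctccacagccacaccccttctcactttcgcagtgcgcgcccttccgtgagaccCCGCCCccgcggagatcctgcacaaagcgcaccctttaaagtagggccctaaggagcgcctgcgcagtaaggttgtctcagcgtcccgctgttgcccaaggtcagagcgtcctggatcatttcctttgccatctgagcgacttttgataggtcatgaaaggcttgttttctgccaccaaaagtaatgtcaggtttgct
Dhcr7, downstream start, chr7:143829964-143830263, plus strand: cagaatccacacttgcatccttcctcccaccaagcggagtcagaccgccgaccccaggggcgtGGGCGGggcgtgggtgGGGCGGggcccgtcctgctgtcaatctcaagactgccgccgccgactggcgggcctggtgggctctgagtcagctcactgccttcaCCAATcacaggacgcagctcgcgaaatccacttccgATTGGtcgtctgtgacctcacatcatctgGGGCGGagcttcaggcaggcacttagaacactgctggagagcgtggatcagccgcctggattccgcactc
The *Hmgcs1* window held TCACCCCAC on its own strand at position 114, with 4 CCAAT and 3 GGGCGG matches. TCACNCCAC was found in 1.24% of 32851 windows of the same length, CCAAT in 37.4% and GGGCGG in 35.7%. The window at the first start of *Dhcr7* held 1 GGGCGG match and neither of the other motifs. The window at its downstream start held 2 CCAAT and 3 GGGCGG matches. The windows for *Idi1*, *Lss* and *Srebf2* held 2, 1 and 1 CCAAT matches, respectively, and 1, 2 and 5 GGGCGG matches.

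Levels of different genes were compared per kilobase of exon, with all annotated exons of a gene joined. This length can exceed that of the transcripts present, so the order depends on the annotation. On this scale *Hmgcs1* was the highest of the 7 genes in wild-type lenses at 12.1 CPM per kb. *Fdft1* followed at 11.2 CPM per kb, *Srebf2* at 6.52, *Idi1* at 6.45 and *Sqle* at 5.52, and *Dhcr7* at 4.92 and *Lss* at 3.82 were the lowest. *Lss* had the greatest exon length, 10787 bases, and its 41.2 CPM was above those of *Dhcr7* (28.6), *Sqle* (30.6) and *Idi1* (22.6). *Srebf2* and *Idi1* differed by less than their spread. In M/M lenses *Idi1*, at 7.98 CPM per kb, stood above *Srebf2*, at 6.49, and *Dhcr7* was last at 1.82. Together the 7 genes held 273 ± 5.71 CPM in wild-type, 292 ± 11.2 in KO, 237 ± 9.54 in I/M and 240 ± 16.8 in M/M lenses (n = 3 each). As a share of all counts in the library, without TMM factors, the order differed, with 0.0239% in wild-type, 0.0265% in KO, 0.0239% in I/M and 0.0299% in M/M lenses.

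**Figure D1:**
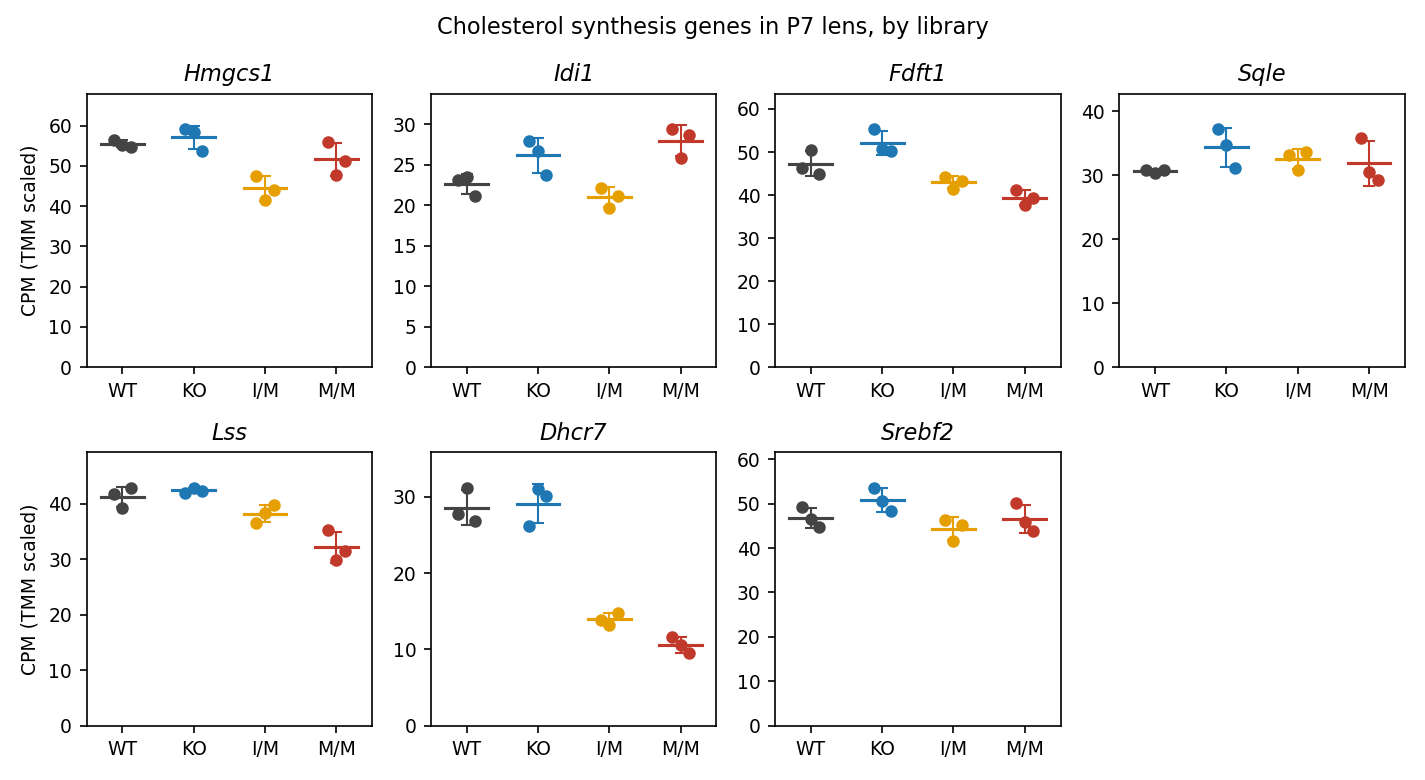
TMM-scaled CPM of the 7 genes (vertical axis, from 0) in each library of the 4 genotypes, with lines at the mean and bars of 1 SD over 3 libraries. *Dhcr7* lies between 26.2 and 31.2 CPM in wild-type and KO libraries and between 9.55 and 14.8 CPM in I/M and M/M libraries.

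Among the 7 genes, *Dhcr7* changed most in the channel mutants and *Idi1* was the only one that rose against wild-type with TMM factors, while *Sqle* and *Srebf2* passed the test in none of the 4 comparisons under that scaling. A gene was called at an adjusted p of at most 0.05 by the quasi-likelihood test of edgeR, with p-values adjusted by the Benjamini–Hochberg method over all tested genes. In M/M against wild-type lenses 4 of the 7 were called, 1 higher and 3 lower, where 62.7% of all tested genes were called, 31.4% higher and 31.4% lower. In I/M lenses 2 of the 7 were called, both lower, against 32.6% of all tested genes, 17.3% higher and 15.3% lower. In KO lenses 0 of the 7 were called, against 4.36% of all tested genes, 2.16% higher and 2.20% lower. Between M/M and I/M lenses 4 of the 7 were called, 2 higher and 2 lower, against 51.3% of all tested genes, 25.6% higher and 25.7% lower. With library size alone the splits were 5 higher and 1 lower in M/M and 1 higher and 1 lower in I/M lenses. They were 1 higher and 0 lower in KO, and 5 higher and 0 lower between M/M and I/M lenses. That scaling moved the middle value over the tested genes to 0.50 in M/M, 0.20 in I/M and 0.05 in KO lenses. Between M/M and I/M lenses it moved to 0.31. The shares of genes called given above hold for TMM factors, so they are no measure for these splits. The library ranges did not overlap for 4 of the 7 genes between M/M and wild-type, against 65.2% of all tested genes, for 4 between I/M and wild-type, against 44.6%, and for 5 between M/M and I/M, against 60.5%. The counts of members called with TMM factors were thus near what the share of all genes gives. With these factors the median log2 fold change of the 7 genes was −0.10 in M/M, −0.11 in I/M and 0.12 in KO lenses. That of all tested genes was then 0.00 in each. The 3 comparisons with wild-type share the same 3 wild-type libraries.

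*Dhcr7* (ENSMUSG00000058454, GRCm38 chr7:143823145-143848410, plus strand) encodes 7-dehydrocholesterol reductase, which makes cholesterol from 7-dehydrocholesterol in the last step of the pathway. It stood at 27.8, 31.2 and 26.8 CPM in the wild-type libraries and at 26.2, 31.0 and 30.1 in the KO libraries. It stood at 13.9, 13.2 and 14.8 CPM in the I/M libraries and at 11.6, 10.6 and 9.55 in the M/M libraries. Every I/M and M/M library was below every wild-type and KO library, and the M/M libraries were all below the I/M libraries. The level in I/M lenses was 48.9% of wild-type (log2 fold change −1.03, SE 0.08, 95% interval −1.21 to −0.85, adjusted p = 8.91e-07). The level in M/M lenses was 36.9% of wild-type (log2 fold change −1.44, SE 0.08, 95% interval −1.62 to −1.25, adjusted p = 9.00e-09). *Dhcr7* was also lower in M/M than in I/M lenses (log2 fold change −0.41, SE 0.09, adjusted p = 0.00148), but with library size alone as the scale this difference was −0.10 and did not pass (adjusted p = 0.287). In KO lenses the log2 fold change was 0.03 with a 95% interval of −0.15 to 0.20 (adjusted p = 0.904).

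Only 65 of the 8984 tested genes, or 0.724%, had a lower log2 fold change than *Dhcr7* in I/M lenses, and 90, or 1.00%, in M/M lenses. At the study's own threshold of at least 2-fold beside the adjusted p, *Dhcr7* was the single member called in both, where 3.33% of tested genes passed in I/M and 8.95% in M/M lenses. Of the 7 genes, 0 passed it in KO lenses, where 0.568% of tested genes did, and 0 between M/M and I/M lenses, where 4.70% did. *Dhcr7* passed without I/M replicate 3 as well, at −1.08 in I/M lenses (adjusted p = 4.22e-06). It missed the 2-fold limit, though not the adjusted p, in I/M lenses without wild-type replicate 2 (−0.97) and with library size alone (−0.83), and in M/M lenses with library size alone (−0.93). Without I/M replicate 2 it also fell short in I/M lenses, at −0.99 less the median of all tested genes, which was 0.00. Lens epithelium markers changed in the channel mutants as well. In M/M lenses 4 of the 6 were lower, with *Foxe3* at −2.24, *Slc38a3* at −1.69, *Gja1* at −0.97 and *Pax6* at −0.62, *Npnt* was higher at 0.41, and *Cdh1* did not pass at −0.05. In I/M lenses the same 4 were lower, and *Npnt* and *Cdh1* were higher. The summed epithelium markers were 350 to 384 CPM in I/M and 384 to 400 in KO libraries. The KO sums too lay below the wild-type range of 411 to 447 CPM. *Cdh1*, at −0.31, was the only one of the 6 markers called in KO lenses. The part of these markers in the *Dhcr7* result was not tested.

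A ratio within a library needs no scaling between libraries, and the reads of *Dhcr7* were set against those of the early enzyme gene *Hmgcs1*. Per 100 *Hmgcs1* reads, the wild-type libraries held 49.3, 56.5 and 49.0 *Dhcr7* reads and the KO libraries 44.4, 53.1 and 55.9. The I/M libraries held 29.3, 31.8 and 33.7 and the M/M libraries 20.6, 22.1 and 18.7. The ratio was thus lowest in M/M and next lowest in I/M libraries, as was the *Dhcr7* level, and the ranges of I/M and M/M libraries overlapped neither each other nor those of the other genotypes. Per 100 *Sqle* reads, the means were 93.5 ± 8.45 in wild-type, 85.4 ± 13.4 in KO, 42.9 ± 1.10 in I/M and 33.2 ± 1.30 in M/M lenses (SD, n = 3). *Dhcr7* made up 10.5 ± 0.693% of the summed counts of the 7 genes in wild-type and 4.40 ± 0.276% in M/M lenses. A ratio of this kind shows that the genes changed unequally, not which of them changed.

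**Figure D2:**
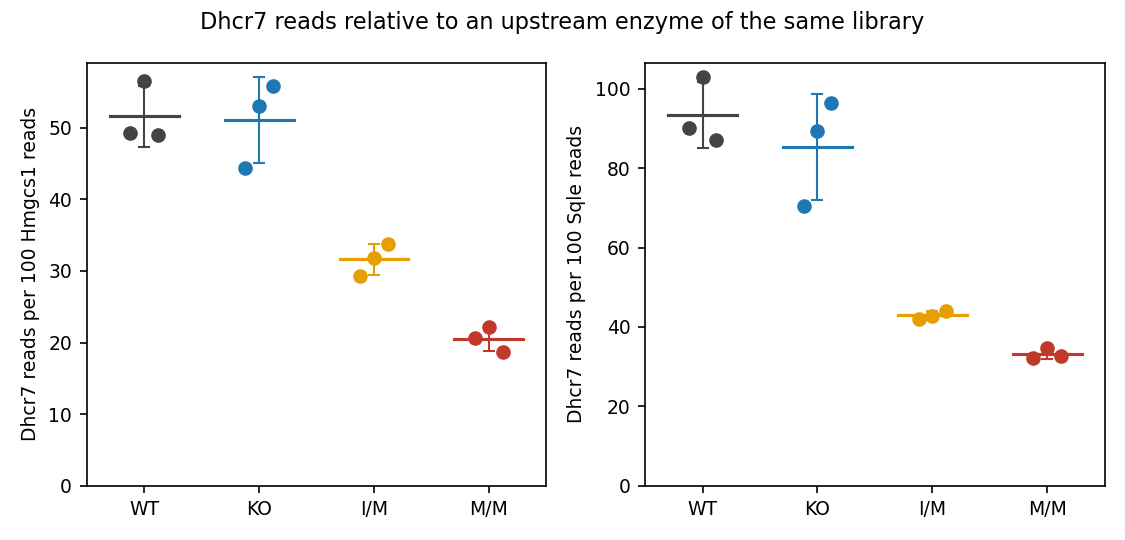
*Dhcr7* reads per 100 *Hmgcs1* reads (left) and per 100 *Sqle* reads (right) in each library, by genotype, with lines at the mean and bars of 1 SD over 3 libraries. In both panels all I/M and M/M libraries lie below all others, at 18.7 to 33.7 reads per 100 *Hmgcs1* reads.

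Of the genes for early steps, *Hmgcs1* fell in I/M lenses and *Idi1* rose in M/M lenses. *Hmgcs1* (ENSMUSG00000093930, GRCm38 chr13:119690379-119708260, plus strand) encodes the cytosolic HMG-CoA synthase that feeds the mevalonate pathway. It stood at 56.4, 55.2 and 54.7 CPM in wild-type, 59.1, 58.4 and 53.8 in KO, 47.6, 41.5 and 44.1 in I/M and 56.0, 47.7 and 51.1 in M/M libraries. All I/M libraries lay below all others, and the M/M libraries overlapped the wild-type range. The log2 fold change was −0.32 in I/M lenses (SE 0.07, adjusted p = 0.00215), while with library size alone it was −0.12 and did not pass (adjusted p = 0.143). In M/M lenses it was −0.10 (95% interval −0.25 to 0.04, adjusted p = 0.180), but with library size alone it was 0.40 and passed (adjusted p = 6.70e-05). *Hmgcs1* was higher in M/M than in I/M lenses by 0.22 (adjusted p = 0.0130), and without I/M replicate 2 the difference was 0.17 and did not pass (adjusted p = 0.0610).

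*Idi1* (ENSMUSG00000058258, GRCm38 chr13:8885501-8892451, plus strand) encodes isopentenyl diphosphate isomerase, which interconverts the isoprenoid building blocks. It stood at 23.1, 23.5 and 21.2 CPM in wild-type, 28.0, 26.7 and 23.8 in KO, 22.1, 19.7 and 21.2 in I/M and 29.4, 25.8 and 28.7 in M/M libraries. The M/M libraries all lay above the wild-type and I/M libraries, and the KO libraries overlapped them. The log2 fold change was 0.31 in M/M against wild-type lenses (adjusted p = 0.00188) and 0.41 against I/M lenses (adjusted p = 0.000275). It was −0.11 in I/M lenses (adjusted p = 0.287) and 0.21 in KO lenses (adjusted p = 0.130). Its share of the summed counts of the 7 genes was 8.29 ± 0.277% in wild-type and 11.7 ± 0.575% in M/M lenses (SD, n = 3).

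The squalene branch gave lower *Fdft1* and *Lss* in M/M lenses, by smaller steps than *Dhcr7*, and no call for *Sqle*. *Fdft1* (ENSMUSG00000021273, GRCm38 chr14:63145150-63179578, minus strand) encodes squalene synthase, which commits the pathway to sterols. It stood at 46.3, 50.5 and 45.0 CPM in wild-type, 55.3, 50.7 and 50.2 in KO, 44.1, 41.4 and 43.3 in I/M and 41.1, 37.7 and 39.3 in M/M libraries. The 3 M/M libraries were the lowest of the 12. Its log2 fold change was −0.27 in M/M lenses (SE 0.06, adjusted p = 0.00116), but with library size alone it turned to 0.25 and passed in the other direction (adjusted p = 0.000494). In I/M lenses it was −0.14 (adjusted p = 0.0773) and without wild-type replicate 3 it was −0.18 and passed (adjusted p = 0.0434). 

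*Lss* (ENSMUSG00000033105, GRCm38 chr10:76531588-76557138, plus strand) encodes lanosterol synthase, which closes the sterol ring system. It stood at 41.7, 39.2 and 42.8 CPM in wild-type, 42.0, 42.9 and 42.3 in KO, 36.6, 38.4 and 39.7 in I/M and 35.2, 29.8 and 31.4 in M/M libraries. The M/M libraries were again the lowest of the 12, while the I/M range overlapped the wild-type range. The log2 fold change was −0.36 in M/M against wild-type lenses (adjusted p = 0.000166) and −0.25 against I/M lenses (adjusted p = 0.00356), but with library size alone these were 0.15 (adjusted p = 0.0742) and 0.06 (adjusted p = 0.483). Summed lens fiber markers, at 37943 to 40207 CPM in I/M libraries, were lower in I/M and M/M than in wild-type libraries, as were summed epithelium markers. In M/M lenses 10 of the 12 fiber markers were lower. In KO libraries the fiber sum, at 43168 to 44401 CPM, also lay below the wild-type range, but 0 of the 12 fiber markers were called there. The part of the markers in the *Fdft1* and *Lss* results was not tested.

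*Sqle* (ENSMUSG00000022351, GRCm38 chr15:59315077-59331192, plus strand) encodes squalene epoxidase, an oxygen-dependent control point of sterol synthesis. It stood at 30.8, 30.3 and 30.8 CPM in wild-type, 37.2, 34.7 and 31.2 in KO, 33.2, 30.8 and 33.7 in I/M and 35.9, 30.5 and 29.2 in M/M libraries. The M/M libraries lay on both sides of the wild-type range. The log2 fold change was 0.06 in M/M (adjusted p = 0.550), 0.09 in I/M (adjusted p = 0.418) and 0.17 in KO lenses (adjusted p = 0.283). With library size alone it passed as higher in M/M lenses at 0.56 (adjusted p = 5.44e-06).

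*Srebf2* (ENSMUSG00000022463, GRCm38 chr15:82147181-82205379, plus strand), the gene of the pathway's regulator, passed the test in none of the 4 comparisons with TMM factors. It stood at 49.2, 46.6 and 44.7 CPM in wild-type, 53.6, 50.5 and 48.3 in KO, 46.3, 41.5 and 45.3 in I/M and 50.1, 45.8 and 43.9 in M/M libraries. Each mutant range overlapped the wild-type range. The log2 fold change was −0.01 in M/M (adjusted p = 0.923), −0.08 in I/M (adjusted p = 0.384) and 0.12 in KO lenses (adjusted p = 0.364), and with library size alone it was 0.50 in M/M lenses (adjusted p = 5.97e-06). RNA of *Srebf2* says nothing about the cleavage that activates its protein, which was not measured here.

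**Figure D3:**
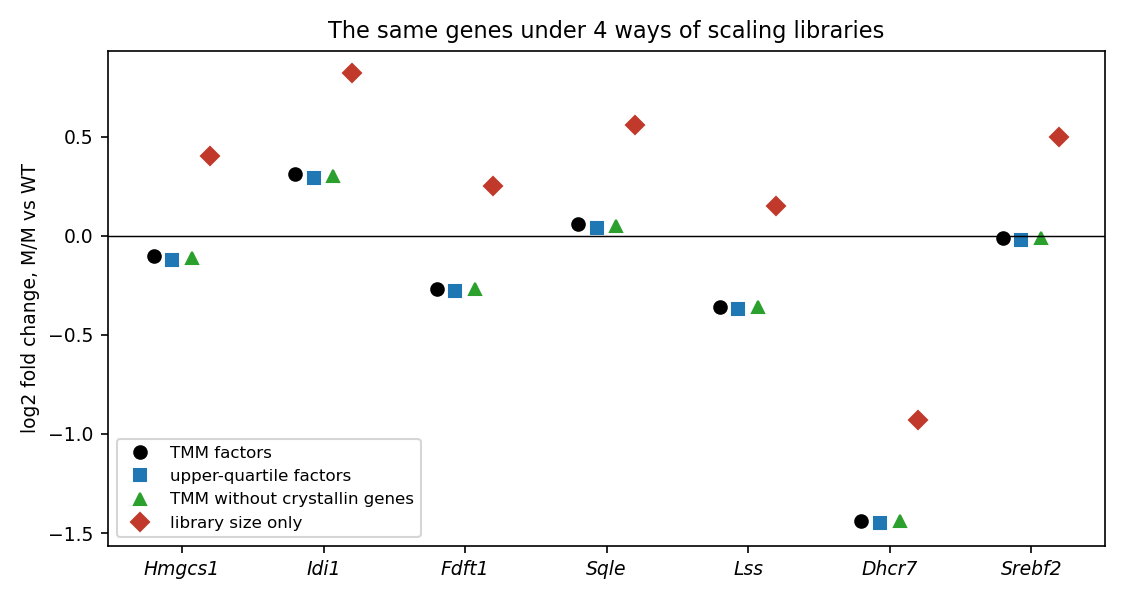
log2 fold change of the 7 genes in M/M against wild-type lenses (vertical axis) under TMM factors, upper-quartile factors, TMM without crystallin genes and library size only. *Dhcr7* is below 0 under all 4 (−1.44 with TMM factors, −0.93 with library size only), *Idi1* is above 0 under all 4, and *Hmgcs1*, *Fdft1*, *Lss* and *Srebf2* change sign with library size only.

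With library size alone, the 1 member called lower in M/M lenses was *Dhcr7*. In I/M lenses the calls were *Sqle* higher at 0.29 (adjusted p = 0.00466) and *Dhcr7* lower. Another scaling shifts the log2 fold changes of all genes by nearly the same amount. Values less the median of all tested genes therefore had to come out close, and their likeness is no test of the results. With library size alone less that median, *Dhcr7* was at −1.43, *Lss* at −0.36, *Fdft1* at −0.26 and *Idi1* at 0.31 in M/M lenses, and with TMM factors less their median the values were the same.

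In KO lenses the log2 fold changes of the 7 genes ran from 0.03 for *Dhcr7* to 0.21 for *Idi1*. At an unadjusted p under 0.05 by edgeR's quasi-likelihood test 2 of the 7 passed, *Idi1* and *Fdft1*, as did 1629 of the 8984 tested genes. DESeq2 and edgeR's exact test called 0 of 7 after adjustment. With library size alone *Idi1* was called at 0.26 (adjusted p = 0.0490). The ranges of wild-type and KO libraries did not overlap for 2 of the 7 genes, where 23.2% of all tested genes did not overlap.

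The rest of the synthesis pathway moved in small steps, and no other enzyme gene reached 2-fold. The list held 21 enzymes with the 6 among the 7 genes, of which 19 were tested and *Tm7sf2* and *Lbr* did not pass the filter, with highest levels of 4.71 and 3.49 CPM. Of the 19, 9 were lower and 2 higher in M/M lenses (median log2 fold change −0.23) and 6 were lower and 0 higher in I/M lenses (median −0.15). Over all tested genes, 31.4% were lower and 31.4% higher in M/M lenses and 15.3% lower and 17.3% higher in I/M lenses. In KO lenses 1 was higher, *Cyp51* at 0.23 (adjusted p = 0.0430). *Cyp51* encodes the enzyme that removes a methyl group from lanosterol.

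Of the 13 other enzymes tested, 6 were lower and 1 was higher in M/M lenses, but with library size alone 10 were higher and 1 was lower. Library size alone put the median of all tested genes at 0.50 in M/M lenses. *Mvk*, which encodes mevalonate kinase, stood at 7.55, 7.46 and 7.87 CPM in wild-type and 5.09, 4.64 and 4.32 in M/M libraries (log2 fold change −0.70, adjusted p = 2.42e-06). *Pmvk*, the gene of phosphomevalonate kinase, fell by 0.52 on the log2 scale (adjusted p = 3.73e-05). *Ebp*, whose product shifts a double bond in the sterol ring, rose from 3.63 ± 0.115 to 5.63 ± 0.503 CPM (log2 fold change 0.63, adjusted p = 5.49e-05). *Ebp* reached 5 CPM in M/M libraries only, so it passed the filter through the group where it was high. Its place among the higher enzymes rests on that group. Next to *Dhcr7*, the lowest log2 fold change of any enzyme was −0.70 in M/M and −0.36 in I/M lenses, the latter that of *Pmvk*.

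**Figure D4:**
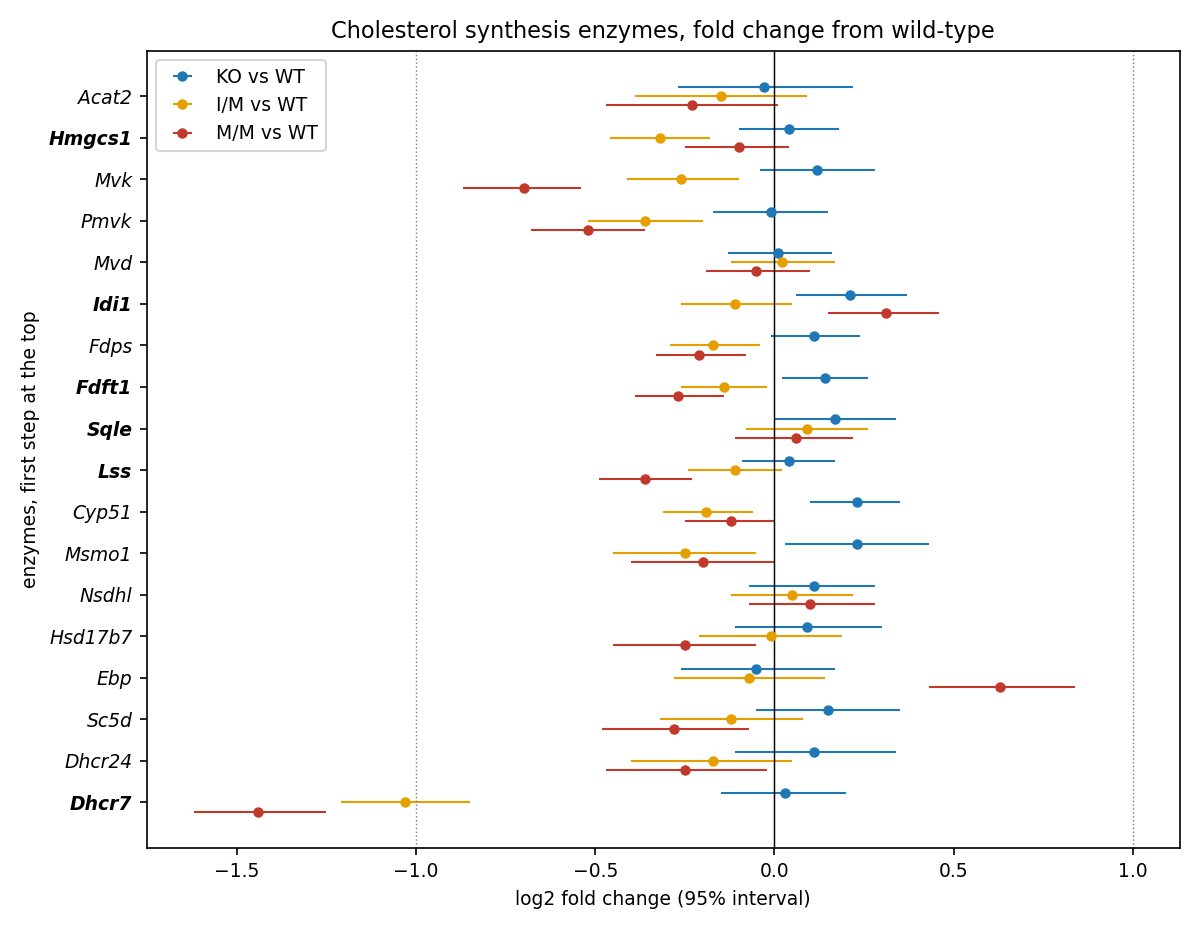
log2 fold change from wild-type (horizontal axis, with 95% intervals) of tested synthesis enzymes, ordered from the first step at the top, in KO, I/M and M/M lenses. Names in bold are the 6 enzymes among the 7 genes, dotted lines mark 2-fold, and only *Dhcr7* at the bottom passes the line, at −1.03 and −1.44.

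Of the 8 genes for SREBP processing and sterol sensing, 2 were lower and 1 was higher in M/M lenses. Over all tested genes, 31.4% were lower and 31.4% higher. With library size alone all 8 were higher, but that scaling put the median of all tested genes at 0.50. *Srebf1*, whose SREBP-1 product favours fatty acid genes, rose from 38.9 ± 1.28 to 61.8 ± 3.45 CPM (log2 fold change 0.67, adjusted p = 2.93e-07), and in KO lenses it was lower at −0.31 (adjusted p = 0.00646). *Insig1*, which retains the SREBP complex in the endoplasmic reticulum and is itself a SREBP target, was lower at −0.42 in I/M (adjusted p = 0.00118) and at −0.20 in M/M lenses (adjusted p = 0.0370). *Mbtps1*, the gene of the first protease that cleaves SREBP, was lower in M/M lenses at −0.24 (adjusted p = 0.000265).

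Uptake genes moved mostly upward in M/M lenses, where 8 of the 11 tested were higher and 1 was lower (median log2 fold change 0.27). In I/M lenses 3 were higher and 1 lower. Over all tested genes 31.4% were higher and 31.4% lower in M/M lenses, and 17.3% higher and 15.3% lower in I/M lenses. With library size alone 10 uptake genes were higher in M/M and 5 in I/M lenses, where the median of all tested genes was 0.50 and 0.20. *Scarb1*, the gene of a receptor for high-density lipoprotein, stood at 10.8, 12.1 and 11.3 CPM in wild-type, 19.9, 19.3 and 18.2 in I/M and 20.0, 21.3 and 20.4 in M/M libraries. Its log2 fold change was 0.74 in I/M (adjusted p = 6.06e-07) and 0.85 in M/M lenses (adjusted p = 3.84e-08). *Npc1*, which moves cholesterol out of lysosomes, was higher in M/M lenses by 0.36 and in KO lenses by 0.49 (adjusted p = 4.89e-05). Summed endothelium markers, at 18.3 to 26.4 CPM in I/M libraries, were higher along with the uptake genes, and their part in these results was not tested.

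Efflux, esterification and oxidation genes were mostly low in the lens, and 4 of the 13 were tested. In M/M lenses 3 of these 4 were higher, and in I/M lenses 0 passed with TMM factors and 1 was higher with library size alone. Over all tested genes with TMM factors, 31.4% were higher in M/M and 17.3% in I/M lenses. Library size alone put the median of all tested genes at 0.20 in I/M lenses. *Apoe*, a cholesterol-carrying apolipoprotein that is also a glial marker, stood at 6.65, 5.44 and 8.05 CPM in wild-type and 22.6, 29.3 and 23.8 in M/M libraries (log2 fold change 1.91, adjusted p = 1.32e-07). *Abca1*, which exports cholesterol, stood at 9.73, 7.56 and 8.80 CPM in wild-type and 19.6, 18.8 and 21.3 in M/M libraries (log2 fold change 1.19, adjusted p = 2.44e-06). *Soat1*, which esterifies cholesterol, was higher by 0.47 (adjusted p = 0.00120). Macrophages also express these genes, and the summed macrophage markers were 1.21 to 1.35 CPM in I/M and 10.1 to 19.1 in M/M libraries. Their part in these results was not tested.

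**Figure D5:**
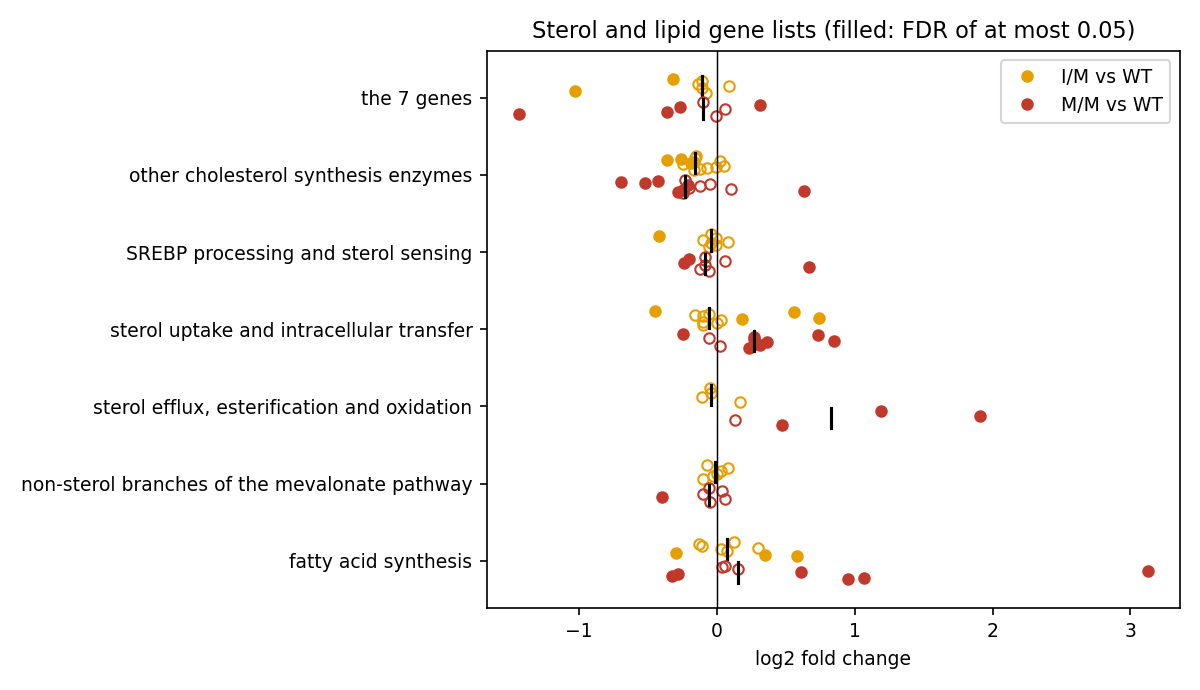
log2 fold change of each tested gene (horizontal axis) for the 7 genes and the 6 lists, in I/M and M/M against wild-type lenses. Filled points have an adjusted p of at most 0.05 and black bars mark the medians, which in M/M lenses are −0.23 for other synthesis enzymes and 0.27 for uptake.

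Of the 6 tested genes of the non-sterol branches, which use mevalonate intermediates for prenylation and dolichol or ubiquinone synthesis, 1 was lower in M/M lenses, *Fnta*, a subunit of the farnesyltransferase, at −0.40 (adjusted p = 4.82e-05), but with library size alone 5 of the 6 were higher. Of the 9 tested fatty acid synthesis genes, 4 were higher and 2 lower in M/M lenses, but with library size alone all 9 were higher. Over all tested genes 31.4% were higher and 31.4% lower in M/M lenses with TMM factors. Library size alone put the median of all tested genes at 0.50 there. *Scd1*, a desaturase of stearate, went from 0.678 ± 0.119 to 5.96 ± 0.434 CPM (log2 fold change 3.13, adjusted p = 1.27e-09). Outside M/M lenses *Scd1* did not exceed 0.930 CPM, so it passed the filter only through the group where it was high. Its place among the 4 higher genes rests on that group. *Fads2* and *Me1* were higher by 1.07 and 0.95 on the log2 scale. Of the 5 tested pericyte and fibroblast markers, 4 were higher and 1 lower in M/M against wild-type lenses (median log2 fold change 1.57). *Col1a1* and *Col1a2* reached 5 CPM in M/M libraries only and passed the filter through them. The count and median are thus partly set by the filter. The summed pericyte and fibroblast markers were 84.5 to 93.0 CPM in I/M and 130 to 183 in M/M libraries. The endothelium and macrophage sums given above were higher too. The part of all these markers in these results was not tested.

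How alike the 7 genes were over the 12 libraries was measured as the root mean square difference of their z-scores of log2 CPM, which is 0 for equal profiles. *Fdft1* and *Dhcr7* were the closest pair at 0.457, *Lss* and *Dhcr7* followed at 0.503, and *Idi1* and *Lss* were the furthest apart at 1.58. With library size alone these likenesses changed, with *Fdft1* and *Dhcr7* at 1.54 and *Lss* and *Dhcr7* at 1.57, and then *Idi1* and *Srebf2* were the closest pair at 0.269 and *Sqle* and *Dhcr7* the furthest apart at 1.78. Among the 5 genes closest to the mean profile of the 7 were *Msmo1* (0.339), *Fdps* (0.366), *Cyp51* (0.367) and *Cdkn2c* (0.407). The first 3 are synthesis enzymes, but with library size alone only *Fdps* and *Cyp51* remained among the closest 5. The points share libraries and scaling, and the measure is a description.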

How the data were processed

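Lens poly(A) RNA was measured by RNA sequencing in 12 libraries, grouped by genotype from the labels. The authors aligned and counted reads with DRAGEN 3.9.3-8 (mm10, Ensembl release 101). What the authors deposited are unnormalized estimated counts for each gene. A second deposited table holds the authors' own edgeR fold changes and p-values, which were not used, and CPM values computed by the authors. Its counts equaled those of the full table. The estimated counts (88.4% whole) were rounded. For 168 identifiers listed repeatedly with equal values, 1 entry was used. The filter kept genes at a CPM of 5 or more in 3 or more libraries. All 12 libraries entered one edgeR 4.0.16 quasi-likelihood fit (R 4.3.3, TMM factors, genotype as the only factor), with Benjamini–Hochberg adjustment over 8984 genes in each of 4 comparisons. SEs were derived from the fold change and F statistic, and 95% intervals from the t quantile. Replicates within a genotype differed beyond counting noise. Exon lengths and coordinates came from a GENCODE annotation of GRCm38. Precision was limited by 3 libraries per genotype rather than by the 56162169 to 82090198 counts per library. The procedure was tested on simulated data.

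The genes, lists, markers and motifs were chosen with earlier results of these data known. Named genes were the 7 members, in each list the 3 tested genes with the largest absolute log2 fold change among those called in M/M lenses, the 5 genes closest to the members' mean profile, and *Trpm3*. Some genes that this rule names are not reported here. *Cyp51*, the genes below the filter, the marker genes, the *Dhcr7* windows and the genes closest to or near *Dhcr7* were chosen after their values were seen. The alternatives were library size only, TMM without crystallin genes, upper-quartile factors, DESeq2 1.42.0, edgeR's exact test, no filter or CPM of at least 1, only the genotypes compared, a block for the replicate number, leaving out each library, and the study's threshold of 2-fold.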

Additional observations from a re-analysis of the deposited data

How the results depend on the processing

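*Dhcr7* kept its direction and call in I/M (log2 fold change −1.08 to −0.83) and M/M lenses (−1.49 to −0.93) under all 21 alternatives, and *Idi1* in M/M lenses (0.26 to 0.82). Of the 588 gene-level values under alternatives, 561 kept direction and call, 19 reversed, 5 gained and 3 lost the call. With library size only, which moves the median of all genes, log2 fold changes reversed in I/M lenses for *Idi1* (0.10), *Fdft1* (0.06), *Lss* (0.09) and *Srebf2* (0.12), in M/M lenses for *Hmgcs1* (0.40), *Fdft1* (0.25), *Lss* (0.15) and *Srebf2* (0.50), and between M/M and I/M lenses for *Fdft1* (0.18), *Sqle* (0.27) and *Lss* (0.06). Leaving out 1 library reversed values near 0, namely *Dhcr7* in KO lenses (−0.02 to 0.10), *Sqle* in M/M against wild-type (−0.01 to 0.13) and against I/M lenses (−0.11 to 0.04), and *Srebf2* in M/M lenses (−0.04 to 0.05). The cause was not tested. 

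Members called were 1 in KO lenses with library size only, and at the 2-fold threshold 1 in I/M, 1 in M/M and 0 between M/M and I/M lenses. List counts with library size only, under which the median of all tested genes also shifted, moved as follows. Other synthesis enzymes called were 2 in I/M, 11 in M/M and 7 in M/M against I/M lenses, SREBP processing genes 6, 8 and 7, and non-sterol branch genes 3, 5 and 5. Uptake genes called were 2 in KO, and in I/M lenses efflux genes 1 and fatty acid genes 6. Leaving out 1 library gave 2 to 3 members called in I/M, 4 in M/M, 0 in KO and 3 to 4 between M/M and I/M lenses.

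The replicate numbers did not pair the libraries (correlation of deviations −0.264 to 0.149 for equal numbers, −0.251 to 0.297 for different ones). With the replicate block, the members called were 0, 2, 4 and 4, and *Dhcr7* was at −1.44 in M/M lenses.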

Other observations

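Genes whose profile over the 12 libraries was closest to that of *Dhcr7* were not genes of the sterol lists. By the root mean square difference of z-scores they were *Susd4* (0.124), *Usp45* (0.133), *Stk35* (0.154), *Abca13* (0.160) and *Rgs4* (0.160), and 4 of these 5 were also among the closest 5 with library size only. *Usp45*, a deubiquitinase gene, was at −1.56 in I/M and −2.48 in M/M lenses (log2 fold change, adjusted p = 1.06e-05 and 4.65e-08, edgeR's quasi-likelihood test). *Rgs4*, a regulator of G protein signalling, was at −1.64 and −2.54 (adjusted p = 1.87e-06 and 1.01e-08). All 5 were lower in both mutants, and in KO lenses their adjusted p ran from 0.470 for *Stk35* to 0.969 for *Rgs4*. They were picked for likeness to *Dhcr7* over these same 12 libraries. Their directions and adjusted p-values follow from that choice and are no separate result.

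The tested genes around *Dhcr7* gave smaller values. Within 500 kb on chromosome 7, 30 other genes are annotated and 8 were tested. In I/M lenses 0 of these 8 were lower and 2 were higher, *Cdkn1c* at 0.50 and *Gm44732* at 0.76, which overlap on opposite strands, so that their reads may not be told apart. In M/M lenses 4 were lower and 3 higher, with log2 fold changes from −0.35 to 0.72. Over all tested genes 15.3% were lower and 17.3% higher in I/M lenses, and 31.4% lower and 31.4% higher in M/M lenses. *Mrgpre*, the tested gene nearest to *Dhcr7*, was 38645 bases away and stood at −0.01 in I/M and 0.36 in M/M lenses.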
